A study of Mus musculus with 8 samples.

Results

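The intercalated disc joins cardiac muscle cells end to end, and 10 genes of its junctions were followed here in hearts of mouse embryos late in gestation (E18.5). They were picked by symbol from the 49315 genes counted, for their known roles: the cardiac connexin genes Gja1, Gja5 and Gjc1, the cadherin gene Cdh2, the desmosome genes Dsp, Jup, Pkp2, Dsg2 and Dsc2, and the catenin gene Ctnna3. All 10 passed the filter on low counts, as did 16372 genes in all. The study compared 4 whole hearts homozygous for the M195I allele of CHD4 with 4 wild-type (WT) hearts. CHD4, the ATPase motor of the NuRD complex, remodels chromatin. The column headers mark every library as male, and the labels name no strain, litter or batch, so p-values measure the spread between these samples only.

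Connexins assemble into gap junction channels that pass ions, and so the electrical impulse, between neighbouring cells. Desmosomes tie the desmin filaments of one cell to those of the next through desmosomal cadherins (desmogleins and desmocollins), the armadillo proteins plakoglobin and plakophilin, and desmoplakin. Adherens junctions tie the actin of the sarcomeres to N-cadherin through catenins, and in the heart both kinds of junction mix along the disc.

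The libraries held 18673488 to 21341235 counts in mutant hearts and 18375951 to 20815388 in WT hearts. Levels are given as CPM (counts scaled to a common library total) after TMM scaling, which sets libraries on a common scale. A gene is said to have risen or fallen where its Benjamini-Hochberg adjusted p over all tested genes was under 0.05 in the quasi-likelihood test of edgeR, and log2 fold changes are mutant over WT with standard errors. Chd4 itself averaged 482 ± 8.48 CPM in mutant hearts and 452 ± 6.37 CPM in WT hearts (SD, n = 4 each), which did not pass the test (0.09 ± 0.03 on the log2 scale, adjusted p = 0.094). Every mutant library lay above every WT library for Chd4, and it was called with DESeq2 (0.10, adjusted p = 0.0042) and with library totals in place of TMM (0.14, adjusted p = 0.0063); counts per gene do not show the mutated codon. RNA of airway epithelium was present in some libraries of both genotypes: Scgb3a2, an airway secretoglobin, was at 284 and 498 CPM of the library total in mutant replicates 3 and 4 and from 176 to 436 CPM in WT replicates 1, 3 and 4, against 0.328 to 6.48 CPM in the other 3 libraries. Desmosomal genes are also active in epithelia. For junction genes and their regulators, a call lost within the 5 libraries with this RNA is given beside the result. For some genes the log2 fold change in the other 3 libraries (2 mutant, 1 WT) is also given. Its p-value is left out, since a single WT library shows no spread between WT hearts.

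In the mutant hearts Gjc1 and Cdh2 rose, Ctnna3 fell, and none of the 5 desmosome genes passed the test. Called members thus numbered 2 higher and 1 lower of 10. Over all tested genes 5.75% rose and 7.49% fell, 13.2% in all. For 4 members the levels of the genotypes did not overlap, higher in Gja5, Gjc1 and Cdh2 and lower in Ctnna3. Of all tested genes, 8.8% lay wholly higher and 9.77% wholly lower in this way, 18.6% in all. The median log2 fold change of the members was 0.02, beside -8.03e-06 over all tested genes. In whole hearts, fewer cells of a type and less RNA per cell cannot be told apart. For cardiomyocytes, the summed level of 12 markers was lower in every mutant library, from 53391 to 59684 CPM, than in any WT library, from 63044 to 70554 CPM, with 4 of the 12 fallen and none risen. The summed level of 6 smooth muscle markers was also lower in every mutant library, at 1007 to 1156 CPM in mutant hearts and 1233 to 1334 CPM in WT hearts, with 2 of the 6 fallen. Of 8 endothelial markers 3 fell and 1 rose, and their sums overlapped, at 1205 to 1349 CPM in mutant hearts and 1333 to 1484 CPM in WT hearts. The part of these cells in the results on the junction genes was not tested.

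**Figure D1:**
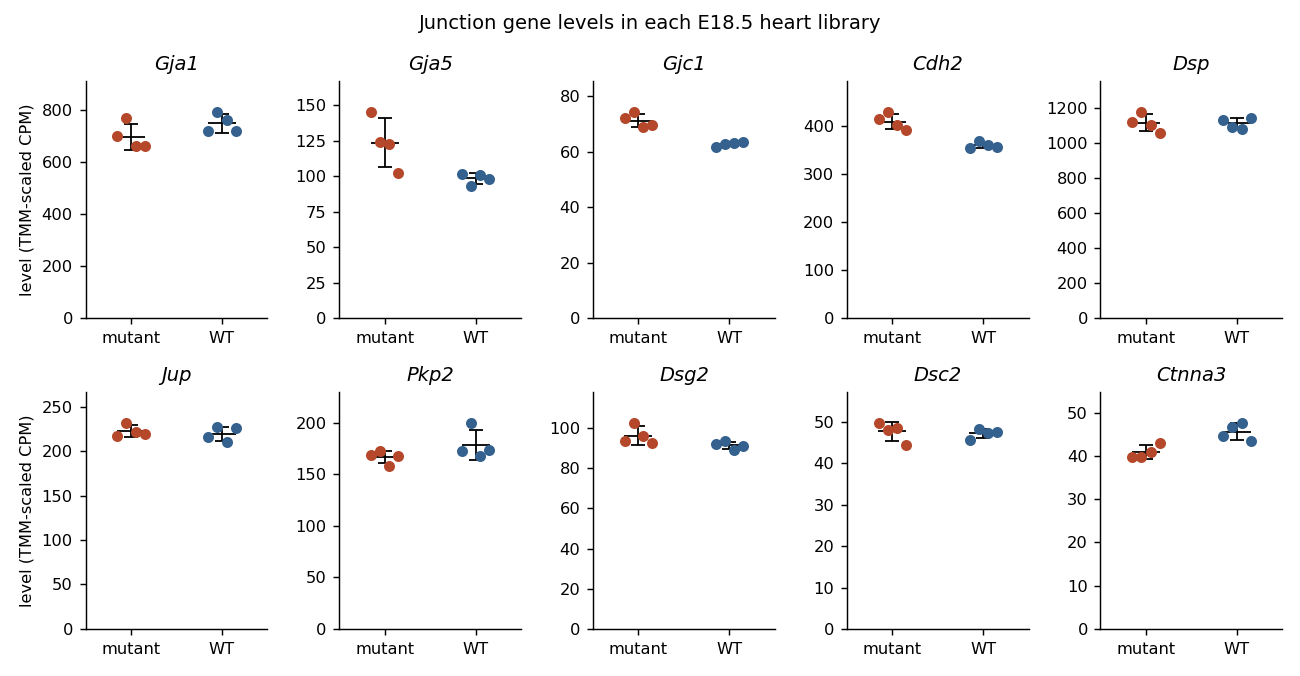
Level of each junction gene (TMM-scaled CPM, vertical axes from 0) in 4 mutant and 4 WT libraries; points are libraries, ticks are means and bars 1 SD. The genotypes are apart for Gja5, Gjc1, Cdh2 and Ctnna3, while the desmosome genes Dsp, Jup, Pkp2, Dsg2 and Dsc2 overlap.

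Per kilobase of exon, the scale on which levels of different genes can be set side by side, Gja1 was the most abundant member, with a mean of 225 ± 16.1 CPM per kb in mutant hearts and 241 ± 11.5 CPM per kb in WT hearts. Dsp followed at 116 ± 5.05 CPM per kb in mutant and 115 ± 3.04 CPM per kb in WT hearts, and then Cdh2, Jup, Pkp2, Gja5, Gjc1, Dsg2, Dsc2 and Ctnna3 in falling order. Neighbours in this order whose ranges over the 8 libraries overlapped were Jup with Pkp2 (32.7 to 36.1 and 29.6 to 37.3 CPM per kb) and Gjc1 with Dsg2 (12.4 to 14.9 and 10.8 to 12.4 CPM per kb). Ctnna3, the scarcest, stayed between 5.51 and 6.60 CPM per kb.

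Gja1 (chromosome 10, 56377300 to 56390419, GRCm38) encodes connexin 43, the main gap junction protein of working ventricular muscle, which fibroblasts, smooth muscle and epicardium also make. Its level was 700, 768, 663 and 660 CPM in mutant replicates 1 to 4, against 718, 792, 762 and 721 CPM in WT replicates 1 to 4. Mutant replicates 1, 3 and 4 lay below every WT library and mutant replicate 2 lay inside the WT range. The log2 fold change was -0.10 ± 0.05 and did not pass (adjusted p = 0.23), with a 95% interval from -0.21 to 0.01. In the 5 libraries with airway RNA it passed, at -0.15 (adjusted p = 0.033). Of 4 ventricular markers 1 fell and none rose, and their sums overlapped, at 5869 to 6168 CPM in mutant hearts and 6091 to 7084 CPM in WT hearts. Of 7 fibroblast markers 2 fell and none rose, and of 7 epicardial markers 2 rose and 2 fell.

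Gja5 (chromosome 3, 96904693 to 97077416) encodes connexin 40, the connexin of fast conduction in atrial muscle, the ventricular trabeculae and Purkinje fibres, which arterial endothelium also makes. Its level was 145, 124, 123 and 103 CPM in mutant replicates 1 to 4, against 101, 93.2, 101 and 98.0 CPM in WT replicates 1 to 4. The lowest mutant library, replicate 4, was just above the highest WT library, and the mutant hearts were the more scattered, with a coefficient of variation of 14.1% against 3.87% in WT hearts. The log2 fold change was 0.33 ± 0.10, the largest in size among the 10 members, with a 95% interval from 0.11 to 0.55. It did not pass (adjusted p = 0.065; unadjusted p = 0.010). DESeq2's Wald test called it (0.33, adjusted p = 0.0010), and so did the fit without mutant replicate 4 (0.41, adjusted p = 0.00067) and that without mutant replicate 1 (0.24, adjusted p = 0.038). Among only those 5 libraries that held airway RNA it was 0.16 (adjusted p = 0.17), and in the 3 without it 0.54, set against a single WT library, replicate 2, which had the lowest Gja5 of the WT libraries. Exons of Gja5 share 165 of 5746 bases with Gpr89 on the other strand, and whether counting used the strand is not stated in these sources.

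Marker lists covering the cells that use connexin 40 did not move as one, and the first of them also marks pacemaker cells. Of 6 Purkinje and pacemaker markers 2 rose, the pacemaker channel gene Hcn4 (0.61 ± 0.09, adjusted p = 0.0018) and the sodium channel gene Scn10a (0.63 ± 0.08, adjusted p = 0.00021), and the summed level of the 6 was 364 to 441 CPM in mutant hearts and 346 to 362 CPM in WT hearts, with no overlap. Of 7 atrial markers 1 rose and 1 fell, and their sums overlapped, at 3516 to 4455 CPM in mutant hearts and 4329 to 5049 CPM in WT hearts. Of 6 markers of arterial endothelium 1 fell (Sox17, -0.36 ± 0.09, adjusted p = 0.020), with sums of 278 to 330 CPM in mutant and 329 to 370 CPM in WT hearts. No marker on these 3 lists was at 0 in any library. The part of these cells in the level of Gja5 was not tested.

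Gjc1 (chromosome 11, 102799579 to 102819700) encodes connexin 45, which forms low-conductance channels and prevails in the early heart tube and in nodal cells. Its level was 72.0, 74.3, 69.0 and 69.5 CPM in mutant replicates 1 to 4, against 61.8, 62.7, 63.1 and 63.4 CPM in WT replicates 1 to 4. Every mutant library was above every WT library, and both groups were tight. Gjc1 rose by a log2 fold change of 0.18 ± 0.04 (adjusted p = 0.0070, 95% interval 0.10 to 0.27), about 1.13-fold. It stayed past the threshold when any 1 library was left out, with values from 0.16 to 0.21. Within the libraries with airway RNA it was at 0.14 and did not pass (adjusted p = 0.087), and in the other 3 it was at 0.23.

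The make-up of the cardiac connexin transcripts followed from these levels. Of the sum of Gja1, Gja5 and Gjc1 per kilobase of exon, Gja1 took 86.3 ± 1.00% in mutant hearts and 89.0 ± 0.61% in WT hearts. Gja5 took 8.27 ± 1.01% in mutant hearts and 6.34 ± 0.45% in WT hearts. Gjc1 took 5.47 ± 0.19% in mutant hearts and 4.64 ± 0.19% in WT hearts (SD, n = 4 each). For none of these shares did the genotypes overlap, and shares that sum to a whole are not independent of each other. In every library Gja1 was by far the most abundant of the 3.

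**Figure D2:**
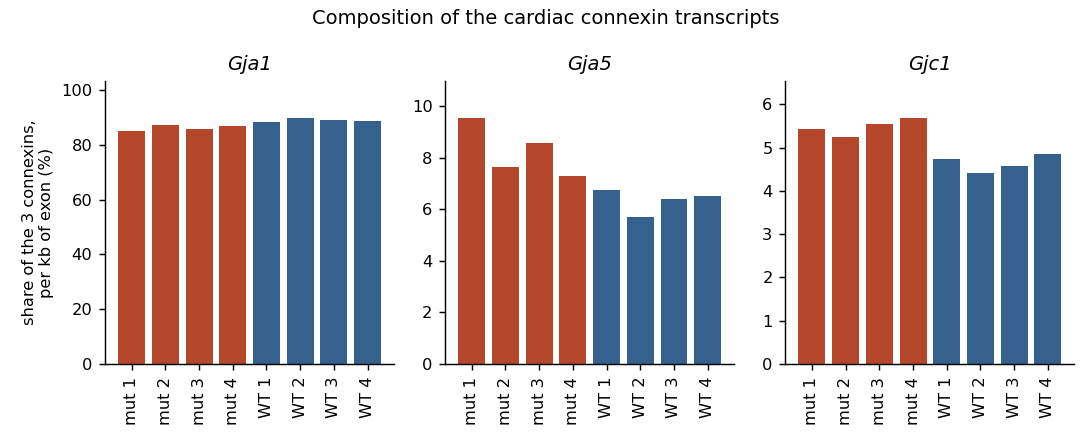
Share of each connexin in the summed level of the 3 per kilobase of exon (%, vertical axes from 0 and scaled per panel), 1 bar per library. In the mutant libraries the share of Gja1 is 85.0% to 87.1% and lies below all WT libraries (88.5% to 89.9%), and the shares of Gja5 and Gjc1 lie above all WT libraries.

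Bases before the annotated start sites in RefSeq (GRCm38.p6) are printed for the connexin genes in the promoter table, Gja1 and Gja5. These differ in abundance and in the direction of their log2 fold changes, though neither was called. Bases before Ctnna3, the member that fell, are printed too. Capitals mark matches on either strand to short cores of motifs bound by cardiac T-box (GGTGTG), NK2 (AAGTG) and GATA (GATAA) factors and to the GC box (GGGCGG).
Gja5, chr3:97032152-97032401, plus strand: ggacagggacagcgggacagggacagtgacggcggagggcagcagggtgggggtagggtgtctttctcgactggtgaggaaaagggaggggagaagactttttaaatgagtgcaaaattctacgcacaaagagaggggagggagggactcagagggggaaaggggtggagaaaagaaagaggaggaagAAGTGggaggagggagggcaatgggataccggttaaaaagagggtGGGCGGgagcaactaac
Gja1, chr10:56377050-56377299, plus strand: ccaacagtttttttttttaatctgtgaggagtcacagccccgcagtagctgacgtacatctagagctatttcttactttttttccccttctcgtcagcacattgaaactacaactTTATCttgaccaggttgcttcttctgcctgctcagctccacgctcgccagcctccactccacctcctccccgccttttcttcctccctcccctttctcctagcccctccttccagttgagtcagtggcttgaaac
Ctnna3, chr10:63429848-63430097, plus strand: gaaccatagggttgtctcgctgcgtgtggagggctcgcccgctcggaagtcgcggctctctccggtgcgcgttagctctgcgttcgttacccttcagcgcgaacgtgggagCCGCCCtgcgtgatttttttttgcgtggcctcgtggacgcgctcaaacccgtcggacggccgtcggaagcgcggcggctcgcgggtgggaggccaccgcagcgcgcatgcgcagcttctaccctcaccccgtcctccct
The Gja5 start used here, 97032402, lies inside the counted span of the gene, and those of Gja1 and Ctnna3 are the starts of theirs. The Gja5 window held 1 NK2 core, 62 to 58 bases before the start, and 1 GC box, 17 to 12 bases before it. The Gja1 window held 1 GATA core, 135 to 131 bases before the start, and the Ctnna3 window 1 GC box, 139 to 134 bases before it. The table holds 2 further Ctnna3 starts, both inside the counted span of the gene and not printed here: the window before 63457511 held 1 NK2 core and that before 63821055 held 1 GATA core. No matches overlapped. Windows of 250 bases with at least 1 match made up 16.3% of all 32851 in the table for the T-box core, 40.7% for NK2, 22.6% for GATA and 32.7% for the GC box, so single matches are common and describe these letters only.

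Cdh2 (chromosome 18, 16588877 to 16809246) encodes N-cadherin, the classical cadherin of cardiac adherens junctions. Its level was 413, 428, 402 and 390 CPM in mutant replicates 1 to 4, against 354, 368, 359 and 356 CPM in WT replicates 1 to 4. Every mutant library was above every WT library. Cdh2 rose by a log2 fold change of 0.18 ± 0.04 (adjusted p = 0.0051, 95% interval 0.10 to 0.27), about 1.14-fold. It kept its call when any 1 library was left out (0.16 to 0.21) and within the libraries with airway RNA (0.15, adjusted p = 0.028), and was at 0.20 in the other 3.

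Ctnna3 (chromosome 10, 63430098 to 65003667) encodes αT-catenin, a catenin of heart muscle that binds both N-cadherin complexes and plakophilin-2. Its level was 39.9, 39.8, 41.0 and 43.1 CPM in mutant replicates 1 to 4, against 44.7, 46.7, 47.7 and 43.5 CPM in WT replicates 1 to 4. The genotypes did not overlap, although mutant replicate 4 and WT replicate 4 nearly touched. Ctnna3 fell by 0.16 on the log2 scale, with a standard error of 0.05 (adjusted p = 0.045, 95% interval -0.26 to -0.05). The call is near the threshold: it was lost without any 1 of 6 libraries (mutant replicate 1, 2 or 3, or WT replicate 1, 2 or 3), with adjusted p up to 0.12, and with DESeq2 (adjusted p = 0.062), RLE scaling (0.052) or library totals (-0.10, adjusted p = 0.18). It was also lost within the libraries with airway RNA (-0.11, adjusted p = 0.28), and the value in the other 3 was -0.22.

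**Figure D3:**
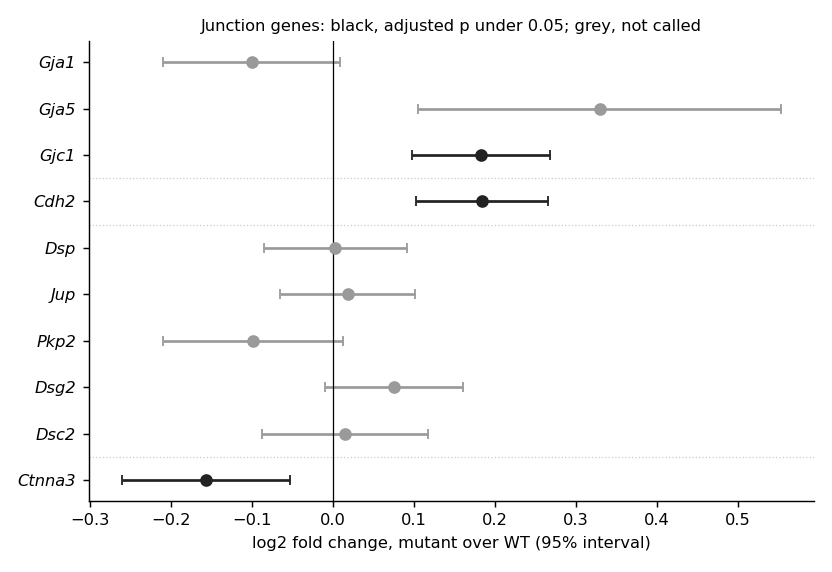
Log2 fold change of each junction gene, mutant over WT, with its 95% interval from the quasi-likelihood fit; black marks genes with an adjusted p under 0.05 and grey those not called. Gjc1 and Cdh2 lie right of 0 and Ctnna3 left of it, and the intervals of the 5 desmosome genes all include 0.

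None of the 5 desmosome members passed the test, with log2 fold changes from -0.10 in Pkp2 to 0.08 in Dsg2. Dsp (chromosome 13, 38151328 to 38198577), for desmoplakin, which anchors desmin filaments, had 1118, 1176, 1101 and 1058 CPM in mutant replicates 1 to 4, against 1132, 1093, 1080 and 1139 CPM in WT replicates 1 to 4. The libraries were mixed, and the log2 fold change of 0.00 ± 0.04 (adjusted p = 0.98) had a 95% interval from -0.09 to 0.09, that is 0.94-fold to 1.07-fold. Jup (chromosome 11, 100368958 to 100397763), for plakoglobin, which sits in both desmosomes and adherens junctions, had 217, 232, 222 and 219 CPM in mutant hearts and 216, 227, 210 and 226 CPM in WT hearts. The groups overlapped (0.02 ± 0.04, adjusted p = 0.84, 95% interval -0.07 to 0.10).

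Pkp2 (chromosome 16, 16213318 to 16272712), for plakophilin-2, which links the cadherins to desmoplakin, had 168, 173, 158 and 168 CPM in mutant hearts and 173, 200, 168 and 174 CPM in WT hearts. WT replicate 2 stood above the rest, and the log2 fold change of -0.10 ± 0.05 did not pass (adjusted p = 0.25, 95% interval -0.21 to 0.01); without that library it was -0.04. In the 3 libraries without airway RNA, where WT replicate 2 is the single WT library, Pkp2 was at -0.22. The desmosomal cadherin genes Dsg2 (chromosome 18, 20558074 to 20604521) and Dsc2 (chromosome 18, 20030633 to 20059554), for desmoglein-2 and desmocollin-2, are those of heart muscle. Dsg2 had 93.8, 103, 96.2 and 92.7 CPM in mutant hearts and 91.9, 93.7, 89.2 and 91.0 CPM in WT hearts. Its upper mutant values lay above WT and its lowest inside the WT range (0.08 ± 0.04, adjusted p = 0.25, 95% interval -0.01 to 0.16), and with library totals in place of TMM it was called (0.13, adjusted p = 0.026). Dsc2 had 49.8, 48.1, 48.6 and 44.4 CPM in mutant hearts and 45.7, 48.3, 47.3 and 47.5 CPM in WT hearts, with full overlap (0.01 ± 0.05, adjusted p = 0.90, 95% interval -0.09 to 0.12).

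Within the summed level of the 5 desmosome genes per kilobase of exon, Dsp took 57.2 ± 0.55% in mutant hearts and 56.9 ± 1.33% in WT hearts. The share of Dsg2 was the only one of the 5 whose genotypes did not overlap, at 5.77 ± 0.11% in mutant hearts and 5.45 ± 0.07% in WT hearts (SD, n = 4 each). Epithelial RNA overlapped between the genotypes: 12 epithelial markers, none of them called, summed to 47.1 to 133 CPM in mutant hearts and 46.0 to 102 CPM in WT hearts. Cdh1, the epithelial cadherin, was at 0.264, 0.419, 11.4 and 28.4 CPM in mutant replicates 1 to 4 and at 14.5, 0.450, 17.4 and 7.05 CPM in WT replicates 1 to 4. In the libraries with airway RNA, Dsp was at -0.05 (adjusted p = 0.52), and in the 3 others at 0.08. Exons of Dsp share 465 of 9625 bases with Gm10129 and those of Dsg2 330 of 8268 bases with Gm16090, each on the other strand.

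Among the other cadherins and catenins, 3 of 19 tested genes rose, 2 fell and 14 did not pass, and the list's median was -0.01 on the log2 scale. The largest difference was in Cdh3, for P-cadherin, a classical cadherin of epithelia and placenta. Its level was 52.8, 37.9, 44.5 and 38.6 CPM in mutant replicates 1 to 4, against 21.4, 19.1, 23.2 and 23.6 CPM in WT replicates 1 to 4. The libraries were widely apart, and Cdh3 rose about 1.99-fold (0.99 ± 0.12, adjusted p = 0.0012, 95% interval 0.72 to 1.27). In the libraries with airway RNA it was at 0.86 (adjusted p = 2.8e-06), and in the 3 others at 1.25. Per kilobase of exon, P-cadherin transcripts were at 9.91 ± 1.58 CPM per kb in mutant and 4.98 ± 0.46 CPM per kb in WT hearts, below N-cadherin transcripts at 50.6 ± 2.03 CPM per kb in mutant and 44.6 ± 0.74 CPM per kb in WT hearts.

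The mesenchymal cadherin gene Cdh11 (0.24 ± 0.06, adjusted p = 0.016) and Afdn, for afadin, which links nectins to actin (0.17 ± 0.03, adjusted p = 0.0040), also rose, and the call of Cdh11 was lost without mutant replicate 2 or WT replicate 1 and with the replicate block (adjusted p = 0.062). Within the libraries with airway RNA Cdh11 was at 0.12 and not called (adjusted p = 0.12), and in the other 3 at 0.48. Arvcf, a catenin of the p120 family (-0.21 ± 0.05, adjusted p = 0.0086), and Nectin2, a nectin adhesion receptor (-0.17 ± 0.05, adjusted p = 0.032), fell, and the call of Nectin2 was lost without any 1 of 5 libraries. Within the libraries with airway RNA neither was called, with Arvcf at -0.14 (adjusted p = 0.090) and Nectin2 at -0.17 (adjusted p = 0.085). In the other 3 Arvcf was at -0.35 and Nectin2 at -0.20. The core catenins did not pass and had narrow intervals: Ctnna1, for αE-catenin, at 768 ± 19.8 CPM in mutant and 777 ± 21.8 CPM in WT hearts (95% interval -0.10 to 0.06), and Ctnnb1, for β-catenin, at 749 ± 23.4 CPM in mutant and 749 ± 17.3 CPM in WT hearts (95% interval -0.08 to 0.08). Exons of Afdn, Arvcf, Nectin2 and Ctnnb1 overlap those of a neighbouring gene.

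Of 13 other desmosome genes 6 were tested, and 2 of these fell. Des, for desmin, the filament that desmosomes anchor, had 746, 750, 775 and 735 CPM in mutant replicates 1 to 4, against 942, 1058, 910 and 962 CPM in WT replicates 1 to 4. Every mutant library was below every WT library (-0.36 ± 0.05, adjusted p = 0.00014). Perp, a tetraspan membrane protein of epithelial desmosomes, fell too, with 224 ± 10.4 CPM in mutant and 260 ± 2.36 CPM in WT hearts (-0.22 ± 0.04, adjusted p = 0.0020). The desmogleins and desmocollins of stratified epithelium were nearly absent: Dsg1a, Dsg1b, Dsg1c, Dsg3, Dsg4, Dsc1 and Dsc3 had at most 8 counts in any library and were not tested, and Dsc1 had none.

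Other gap junction genes were scarce. Of 20 other connexins and pannexins 7 were tested, 1 rose and 1 fell, and their median log2 fold change was -0.07. Gja3, for connexin 46, had 18.6, 21.7, 23.5 and 18.7 CPM in mutant replicates 1 to 4, against 22.7, 25.3, 25.1 and 25.5 CPM in WT replicates 1 to 4. Most mutant libraries were lower, with mutant replicate 3 inside the WT range, and Gja3 fell (-0.26 ± 0.08, adjusted p = 0.039). The call was lost without any 1 of 5 libraries and within the libraries with airway RNA (-0.22, adjusted p = 0.19). In the libraries without that RNA Gja3 was at -0.32. Gja4, for connexin 37 of arterial endothelium, averaged 23.4 ± 1.73 CPM in mutant and 25.6 ± 1.57 CPM in WT hearts and did not pass (-0.13 ± 0.07, adjusted p = 0.23). Panx1, for the large-pore channel pannexin 1, rose (0.29 ± 0.09, adjusted p = 0.035), a call lost without any 1 of 6 libraries and with DESeq2. Within the libraries with airway RNA Panx1 was at 0.40 (adjusted p = 0.025), and in those without it at 0.12.

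Of 18 further genes whose proteins lie at the intercalated disc, all tested, 2 rose, 4 fell and 12 did not pass, with a median of -0.01. Xirp2, for an actin-binding protein of the disc and Z-disc, had 10.2, 6.23, 9.90 and 7.77 CPM in mutant replicates 1 to 4, against 14.9, 13.5, 14.9 and 12.9 CPM in WT replicates 1 to 4. The groups did not overlap, and Xirp2 fell (-0.72 ± 0.14, adjusted p = 0.0040). Synm, for the intermediate filament protein synemin, a partner of desmin, fell as well (-0.61 ± 0.10, adjusted p = 0.00089), with 12.9 ± 1.06 CPM in mutant and 19.7 ± 2.88 CPM in WT hearts. Nrap, for an anchor between sarcomeric actin and the disc (-0.23 ± 0.05, adjusted p = 0.0032), and Flnc, for filamin C (-0.19 ± 0.04, adjusted p = 0.011), fell by less. Popdc2, an abundant popeye protein gene, did not pass (-0.05 ± 0.05, adjusted p = 0.57). Exons of Nrap, Synm, Xirp2 and Des overlap those of a neighbour.

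**Figure D4:**
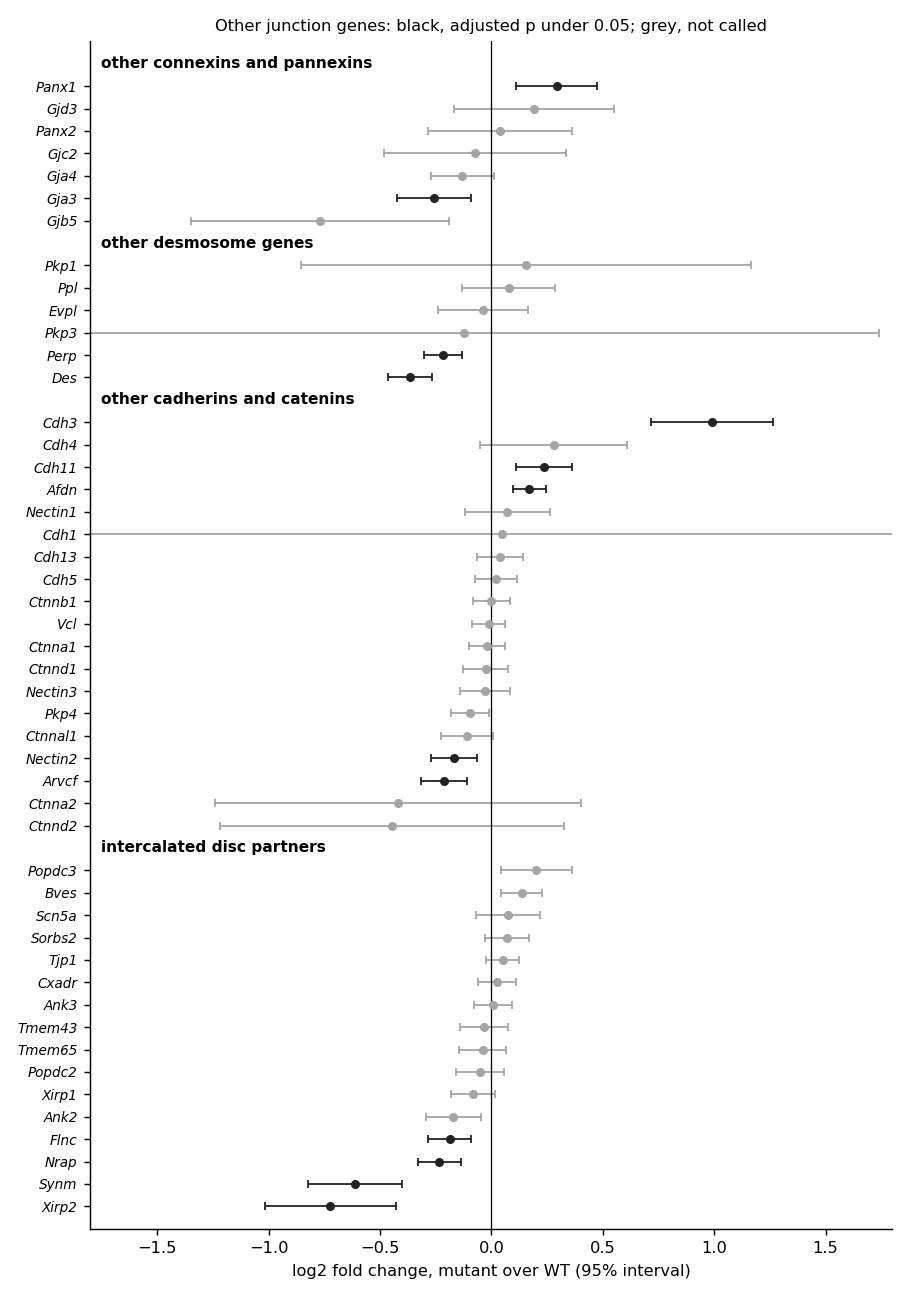
Log2 fold change, mutant over WT, with 95% intervals, for tested genes of 4 lists of junction genes outside the 10 members, ordered by value within a list; black marks an adjusted p under 0.05. Intervals of Pkp3 and Cdh1 run past the axis; Cdh3 lies farthest right among called genes (0.99), and Synm and Xirp2 farthest left (-0.61 and -0.72).

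Transcription factors known to act on connexin genes in the mouse were read beside them. Of 10, 1 rose, 1 fell and 8 were not called, with a median of 0.01. Nkx2-5, a homeobox activator of Gja5, was at 156 ± 11.3 CPM in mutant and 148 ± 8.14 CPM in WT hearts (0.08 ± 0.05, adjusted p = 0.38). Tbx3, a repressor of working-muscle connexins in the conduction system, had 22.2, 20.2, 18.9 and 23.2 CPM in mutant replicates 1 to 4, against 27.0, 27.0, 22.4 and 27.2 CPM in WT replicates 1 to 4. It fell (-0.29 ± 0.08, adjusted p = 0.023), with WT replicate 3 inside the mutant range, and the call was lost without any 1 of 5 libraries and within the libraries with airway RNA (-0.28, adjusted p = 0.13). Shox2, a sinus node factor, rose (0.56 ± 0.10, adjusted p = 0.0019), with 15.3 ± 1.44 CPM in mutant and 10.4 ± 1.34 CPM in WT hearts. Hopx, an atypical homeodomain protein, did not pass (-0.12 ± 0.05, adjusted p = 0.17); without WT replicate 2 it was at -0.05, and in the 3 libraries without airway RNA, where that library is the only WT one, at -0.25. Exons of Tbx3, Shox2 and Hopx overlap those of a neighbour.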

How the data were processed

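Per the labels' protocols, heart RNA was taken up in Trizol and prepared with an Illumina TruSeq kit. The submitters' processing notes name Trimmomatic 0.36, STAR 2.5.2b, featureCounts (Subread 1.5.2) and the build GRCm38 (mm10). The authors deposited raw gene counts, in a series-wide table and in 1 file per library, and no value differed between them. Exonic lengths are other values, taken per the file headers. The annotation release and strand setting were not stated. Symbols came from a GENCODE M21 table, for 48970 of 49315 genes.

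Genes were kept by filterByExpr (minimum count 10), scaled by TMM and tested with the robust quasi-likelihood fit of edgeR 4.0.16 in R 4.3.3 over all 16372 kept genes, without covariates. The test recovered changed genes in simulated counts. The simulation gave every gene the same dispersion and used changes larger than those called in the members, so it does not cover changes of that size. Pairs of replicates differed beyond sampling noise (chi-square per degree of freedom 2.72 to 8.52). Intervals cover the spread between libraries. The alternatives used DESeq2 1.42.0, limma 3.58.1, other scalings and filters, each library left out, a replicate block, covariates, and fits within libraries above or below 10 CPM of Scgb3a2 (with or without airway RNA). Members, gene lists and tests were chosen with earlier results of these data known. Outside the members, genes were named as up to 3 called per list and direction by adjusted p, and the 2 most abundant per kilobase, with markers beside a result; 2 genes that this selects are not reported here. Cdh1, and the untested genes named, were added after their values were seen.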

Additional observations from a re-analysis of the deposited data

Results flagged for a closer look

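A library was singled out where its gap to the nearest of the other 3 of its genotype was most of the whole range (above Dixon's 95% critical ratio), which chance alone does in about 1 of 20 groups. Among 64 groups of 4 libraries, 3 met this. Gja3 was at 22.7 CPM in WT replicate 1, below the other WT libraries at 25.1 to 25.5 CPM. Tbx3 was at 22.4 CPM in WT replicate 3, below 27.0 to 27.2 CPM in the others. Hopx was at 329.8 CPM in WT replicate 2, above 275 to 282 CPM in the others. No level of the 10 junction genes followed above met it.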

How the results depend on the processing

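Gjc1, Cdh2 and Gja5 were higher in the mutants under all 20 alternatives, and Ctnna3 and Pkp2 lower. Gja1 was lower in 19 of 20 and stood at 0.01 with Xist as a covariate. Gjc1 was called in 17, Cdh2 in 18, Gja5 in 8 and Ctnna3 in 5 of the 20. Leaving out 1 library gave 2 to 3 members higher, 0 to 1 lower (with unadjusted p under 0.05, 1 to 2 lower), and 579 (without WT replicate 1) to 850 of all genes higher. Library totals in place of TMM shift the median gene by 0.05 and gave 1856 genes higher and 858 lower (68.4% of calls higher, against 43.5%); members were then 4 higher (Dsg2, at 0.13, and Gja5 joined) and 0 lower (0 unadjusted as well). No member was called lower with DESeq2, RLE, upper quartile, no filter or the block (0 in each; 1, 1, 1, 3 and 3 at an unadjusted p under 0.05). Xist itself was scarce, at 1.55 to 1.98 CPM in mutant and 1.25 to 1.56 CPM in WT libraries. These ranges barely overlap, so a fit that adjusts for Xist can hardly separate it from genotype. Such a fit called 0 members (3 higher and 1 lower unadjusted), and over the whole set 117 rises and 149 falls. There Gjc1 was at 0.24 ± 0.07, Cdh2 at 0.25 ± 0.06 and Ctnna3 at -0.21 ± 0.09. Without Xist these were 0.18 ± 0.04, 0.18 ± 0.04 and -0.16 ± 0.05. Their lost calls came with wider standard errors, not with smaller log2 fold changes. Libraries with airway RNA gave 609 genes and 1 member higher; the others, where the lone WT library is assumed to vary like the mutants, gave 595 genes and 1 member higher and 812 genes lower. The causes were not tested.

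Same-numbered libraries of the genotypes deviated together unevenly (correlations -0.52, 0.77, 0.56 and 0.10 for replicates 1 to 4). Mutant replicates 2 and 3 correlated best with the WT library of their own number, and mutant replicates 1 and 4 did not. Replicate 1 held airway RNA in the WT library only, replicate 2 in neither and replicates 3 and 4 in both. The correlations therefore cannot settle whether the numbers pair the libraries. With the replicate block, 1023 genes rose and 1432 fell, and Gja5 was at 0.32 (adjusted p = 0.031). Over 32 named genes, 552 of 640 values kept their side of the threshold, 74 lost and 14 gained a call, and none that was called reversed. The scarce connexins and epithelial desmosome genes were left out by the filter on low counts.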

Other observations

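Some connexins outside the tested set had a handful of counts. Gjb1, for connexin 32 of epithelia and liver, had 0, 0, 4 and 18 counts in mutant replicates 1 to 4 and 9, 1, 8 and 5 counts in WT replicates 1 to 4, and the libraries with most counts were among those with airway RNA. Gjb2, for connexin 26, had 4, 2, 10 and 8 counts in mutant replicates 1 to 4 and 1, 0, 0 and 1 in WT replicates 1 to 4. Every mutant library was above every WT library for Gjb2, but it failed the filter on low counts and was not tested; it was singled out after its counts were seen.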
